A study of Mus musculus with 6 samples.

Results

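Early postnatal maturation of the mouse gastrocnemius, a fast-contracting calf muscle, was followed from postnatal day 2 (PN2) to PN14 in the 3 samples that cover this interval, out of 6 in the series. Every sample was polyA RNA of whole gastrocnemius from wild-type FVB mice. PN2 was 1 library made from the RNA of several pooled male mice, and PN14 was 2 libraries, replicates 1 and 2, each from 1 male mouse. The other libraries were E18.5 (pooled males and females), PN28 and adult (22 weeks), with 1 library each. They entered the filter, the scaling and the shared spread of the fit. They also served to ask whether the changes between PN2 and PN14 separate the stage before this interval from the stages after it. The question was which genes rose or fell in the first weeks after birth.

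In newborn mouse muscle, fibres still carry embryonic and perinatal forms of the contractile proteins, satellite cells divide and fuse to add nuclei, and each fibre loses surplus nerve contacts. Over the following weeks the perinatal forms give way to adult ones, the calcium release apparatus is assembled, glycolytic and mitochondrial enzymes are laid down, and growth slows. In whole-muscle RNA, fewer cells of a type and less RNA per cell cannot be told apart.

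A change was counted as held only when it was called in the same direction under both scalings of the libraries and was at least 2-fold in that direction in each PN14 library against PN2 under both. The scalings were TMM, which sets the bulk of genes equal between libraries, and library size, which sets the total counts equal. For a call, the edgeR quasi-likelihood test had to give a Benjamini-Hochberg adjusted p below 0.05 over the 16882 genes tested, with a change of 1 log2 unit or more. Below, "rose" and "fell" are used of held changes, log2 fold changes are PN14 minus PN2 under TMM with their standard error (SE), and levels are FPKM (fragments per kilobase of gene, scaled to the sequenced total). FPKM is relative to the library total, so for every gene the FPKM ratio is lower at PN14 than the TMM fold change implies. Replicates exist at PN14 only, which leaves 1 degree of freedom for the error, so the p-values assume that PN2 would vary between libraries as PN14 did. Each library had its own sequencing lane, and lane, animal and stage cannot be told apart at PN2.

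The total counts on genes were 156720418 at PN2 and 125402932 and 150386264 at PN14. The 20 most abundant genes took 16.7% of counts at PN2 and 33.7% and 28% in the PN14 libraries. The scalings moved the centre of the distribution: the median log2 fold change over all tested genes was -0.01 under TMM and -0.66 under library size. Under TMM, 11.8% of tested genes were called rising and 11.2% falling, and under library size 5.06% were called rising and 29.4% falling. All 1896 genes called falling under TMM were also called falling under library size, whereas 1199 of the genes called rising under TMM were not called under library size. No gene was called in opposite directions.

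Held changes comprised 651 rising genes (3.86% of those tested) and 1595 falling genes (9.45%). Asking for both scalings removed genes from the rising side. Genes at least 2-fold different in both PN14 libraries numbered 1710 higher and 1640 lower under TMM, and 697 and 1640 under both scalings. The held numbers therefore do not show that more genes fell than rose. Large differences could still miss the criteria: 46 genes higher and 45 genes lower by at least 2-fold in all 4 differences (2 PN14 libraries by 2 scalings) lacked a call under 1 of the scalings. Without any test, 10.1% of tested genes were at least 2-fold higher and 9.71% at least 2-fold lower than PN2 in both PN14 libraries under TMM. Among the held genes, the smallest of the 4 differences had a median of 1.51 log2 units for rising and -1.46 for falling genes, and it reached 16-fold for 20 rising and 31 falling genes. The genes nearest the 2-fold limit were Idh3a (1.001, inside) and Tecr (0.999, outside) among rising genes.

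**Figure D1:**
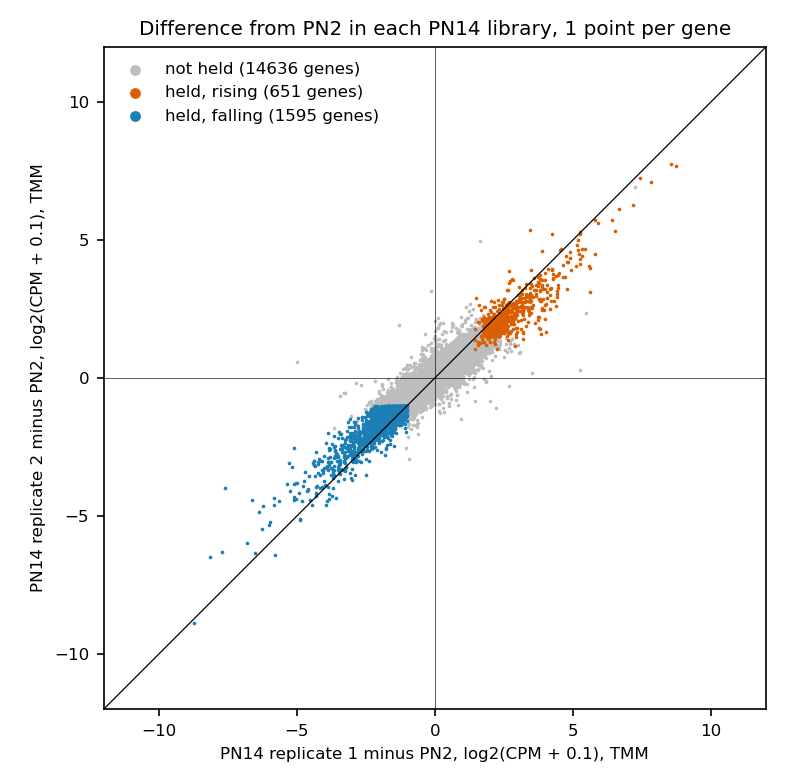
Difference of each PN14 library from PN2, in log2(CPM + 0.1) under TMM, with replicate 1 on the x axis and replicate 2 on the y axis and 1 point per tested gene. The 651 held rising genes (orange) and 1595 held falling genes (blue) lie in opposite quadrants by definition. Most of them lie on the side of the diagonal where replicate 2 is nearer PN2.

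The PN14 libraries did not lie equally far from PN2. Replicate 2 was nearer PN2 than replicate 1 for 561 of the 651 rising genes (86.2%) and 1274 of the 1595 falling genes (79.9%), against 70.1% of all tested genes. The median difference of replicate 2 from replicate 1 was -0.35 log2 units over the rising genes and 0.30 over the falling genes. The values of both libraries are therefore given throughout.

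Most held genes differed in the same direction between E18.5 and the later stages. These libraries were in the fit but in neither group of the comparison. The step from E18.5 to PN28 and adult spans PN2 to PN14, so a lasting change in that interval appears in it. Of the rising genes, 468 (71.9%) were at least 2-fold higher in both PN28 and adult than in E18.5 under both scalings, against 5.89% of all tested genes, and 0 were lower by that measure. Of the falling genes, 1391 (87.2%) were at least 2-fold lower in both, against 17.8% of all tested genes, and 6 were higher. With 1 library per stage these are counts and not tests.

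The sarcomeric myosin heavy chains showed the widest exchange. These genes encode the motor protein of the thick filament and lie side by side in the same orientation on chromosome 11 (mm9), in the order Myh3 (embryonic), Myh2 (fast type 2A), Myh1 (fast type 2X), Myh4 (fast type 2B) and Myh8 (perinatal). They are close paralogs, so the split of reads among them by the authors' counting is uncertain. The 250 bases before the annotated start of 3 of them are shown because these genes moved in opposite directions while their upstream sequences share stretches of bases. The sequences are from RefSeq (GRCm38.p6, plus strand: Myh8 chr11:67276874-67277123, Myh4 chr11:67237562-67237811, Myh1 chr11:67199852-67200101), and capitals mark the stretches of at least 11 bases common to all 3.
Myh8: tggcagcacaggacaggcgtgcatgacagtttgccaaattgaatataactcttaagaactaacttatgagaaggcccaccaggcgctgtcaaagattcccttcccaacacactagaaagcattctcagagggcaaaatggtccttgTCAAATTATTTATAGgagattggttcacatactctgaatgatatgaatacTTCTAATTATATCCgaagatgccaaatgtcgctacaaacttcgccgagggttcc
Myh4: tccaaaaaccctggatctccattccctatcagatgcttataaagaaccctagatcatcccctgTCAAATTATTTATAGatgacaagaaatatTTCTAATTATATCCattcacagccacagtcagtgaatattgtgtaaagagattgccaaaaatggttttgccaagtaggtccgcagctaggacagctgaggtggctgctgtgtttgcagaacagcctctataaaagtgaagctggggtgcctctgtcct
Myh1: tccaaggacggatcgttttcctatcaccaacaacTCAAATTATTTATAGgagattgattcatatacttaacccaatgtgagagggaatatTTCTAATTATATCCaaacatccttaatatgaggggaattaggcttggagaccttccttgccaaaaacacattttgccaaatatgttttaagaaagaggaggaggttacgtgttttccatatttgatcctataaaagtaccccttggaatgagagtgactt

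There were 2 such stretches, found after the values were seen, and both occur in the same order and strand in all 3 genes. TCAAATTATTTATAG begins 104 bases before the start in Myh8, 187 in Myh4 and 216 in Myh1. Searched on both strands, it was in 3 of 15555 windows of this length over the tested genes (0.0193%), which are those of these genes. TTCTAATTATATCC begins 54, 158 and 160 bases before the start in the same order, and was in 4 windows (0.0257%), those of the same genes and of Myh2. A shared stretch is a description of the sequence and not a binding site.

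Myh8 (chr11:67090626-67122136 in mm9) had an FPKM of 4065 at PN2 and of 8.25 and 31.1 at PN14. It was the most abundant transcript by share at PN2, with 2.48% of all counts, and both PN14 libraries lay far below it. The log2 fold change was -7.10 (SE 1.0, edgeR Benjamini-Hochberg adjusted p = 0.00784). Myh3 (chr11:66891802-66915793) fell from 508 to 10.9 and 26.2 FPKM (log2 fold change -4.16, SE 0.556, adjusted p = 0.00703). Both were lower still at PN28 and adult, where Myh8 had 1.41 and 0.25 FPKM.

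Myh1 (chr11:67013554-67038078) rose from 37.8 FPKM at PN2 to 1238 and 1377 at PN14, a log2 fold change of 5.77 (SE 0.967, adjusted p = 0.0114). Its level was lower again in the later libraries, at 842 FPKM at PN28 and 512 in the adult. Myh2 (chr11:66984529-67011019) rose from 142 to 763 and 582 FPKM, with a log2 fold change of 2.93 (SE 0.712, adjusted p = 0.0292), and stood at 501 and 237 FPKM at PN28 and adult. Myh4 (chr11:67051314-67073948) had the largest difference of the fast myosins, 81.4 FPKM at PN2 against 7179 and 6791 at PN14, with a log2 fold change of 7.09. Its SE was 2.58 and its adjusted p 0.0832, so it was not called under TMM although the PN14 libraries lay close together and far above PN2. Myh4 was higher still at PN28 (9492 FPKM) and in the adult (12055 FPKM).

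Other abundant contractile genes had large SEs too. Of 16 genes listed as fast fibre genes, 6 rose and 1 fell (Sln), against 3.86% and 9.45% of all tested genes. Under TMM 9 were not called, whereas 14 were called rising under library size, against 5.06% of all tested genes. The list's median log2 fold change was 2.89 under TMM and 2.21 under library size, against -0.01 and -0.66 over all genes. Its summed share of counts was 3.68% at PN2 and 21.8% and 18% at PN14. Acta1, the skeletal actin of the thin filament, had 14345 FPKM at PN2 and 37682 and 30696 at PN14, with a log2 fold change of 1.93 (SE 1.91) and an adjusted p of 0.467. Ckm, the muscle creatine kinase, had 4189, 18755 and 13973 FPKM, with 2.65 (SE 1.53) and an adjusted p of 0.225. For both genes each PN14 library was above PN2, by 2.18 and 1.63 log2 units under TMM for Acta1. The SE draws on a spread that the fit shares among genes, so it is not the spread of a gene's own PN14 libraries. Acta1, Ckm, Mylpf, Atp2a1, Tpm1, Gapdh and Aldoa were at least 2-fold higher in all 4 differences and lacked only the TMM call. The held counts of lists with such abundant genes leave them out.

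Pvalb, the calcium-buffering parvalbumin of fast fibres (chr15:78021544-78036830), had 93.7 FPKM at PN2 and 20739 and 14167 at PN14, a log2 fold change of 8.23 (SE 1.62, adjusted p = 0.0167). Actn3, the fast Z-disc actinin, rose from 158 to 1783 and 1359 FPKM. Mybpc2, fast myosin-binding protein C, rose from 83.5 to 1851 and 1161 FPKM, and Casq1, the fast calsequestrin that stores calcium, from 550 to 3604 and 3076. Sln, the small protein sarcolipin that inhibits the calcium pump, fell from 896 to 24.6 and 77.6 FPKM (log2 fold change -3.53, SE 0.518, adjusted p = 0.00846).

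**Figure D2:**
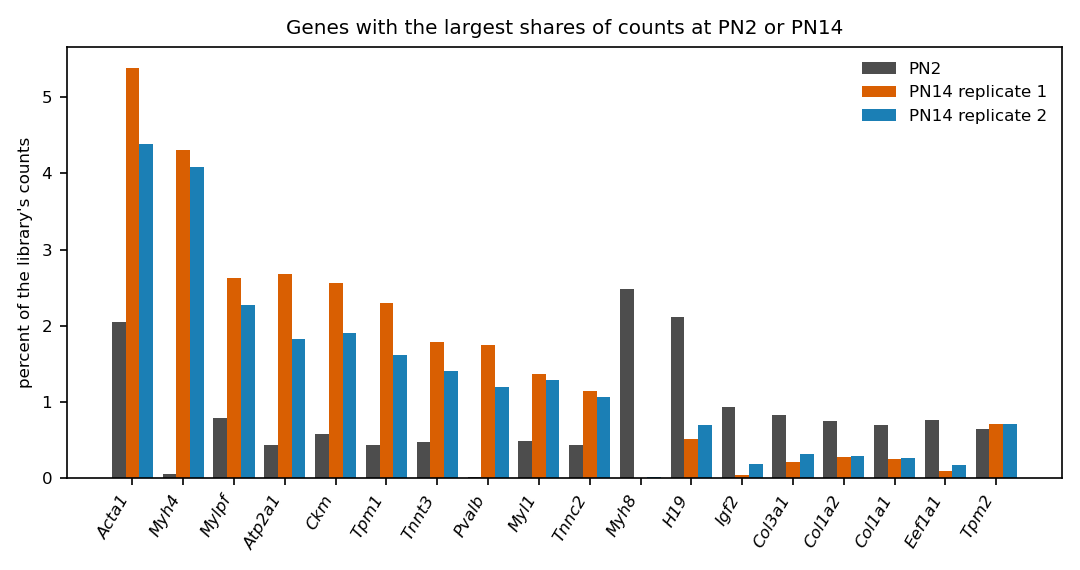
Percent of each library's counts taken by the genes with the largest shares at PN2 or PN14, with 1 bar per library and no error bars. The 10 genes largest at PN14 (left) took 5.72% of counts at PN2 and 25.9% and 21.0% at PN14, and Myh8, at 2.48% at PN2, is not visible at PN14.

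As the plot of count shares shows, the 10 genes with the largest shares at PN14 took 5.72% of counts at PN2 and 25.9% and 21.0% at PN14. The 10 genes largest at PN2, among them Myh8, H19, Igf2 and 3 collagen genes, took 12% at PN2 and 10.1% and 9.31% at PN14. Acta1 and Mylpf are in both sets.

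Of 9 genes listed as developmental sarcomere isoforms, 5 fell and 0 rose, against 9.45% and 3.86% of all tested genes. Of the 5, Myh10 is a non-muscle myosin outside the sarcomere. Besides Myh8 and Myh3, Myl4, the embryonic essential light chain, fell from 534 to 8.79 and 17.2 FPKM (log2 fold change -4.73, SE 0.331, adjusted p = 0.00301). Tnnt2, cardiac troponin T, fell from 222 to 9.79 and 15.8 FPKM (-3.49, SE 0.232, adjusted p = 0.00301), and Myh10 from 23.9 to 6.25 and 8.19. Actc1, cardiac actin, differed from these: it had 2201 FPKM at PN2 and 2166 and 3465 at PN14, and it was not called under either scaling. Relative to PN2 its log2 differences were 0.77 and 1.18 under TMM and -0.02 and 0.66 under library size.

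Of 14 slow fibre genes, 0 rose and 1 fell, against 3.86% and 9.45% of all tested genes, with a median log2 fold change of 0.76 under TMM and 0.08 under library size. Under each scaling 3 members were called rising, Myl2, Myl3 and Ankrd2, and 2 falling, and the rising calls were not at least 2-fold in both PN14 libraries under library size. The member that fell was Casq2, the cardiac and slow calsequestrin, from 416 to 53.3 and 75.4 FPKM (log2 fold change -2.05, SE 0.285, adjusted p = 0.00763). Tnni1, slow troponin I, had 524 FPKM at PN2 and 415 and 353 at PN14, and Tnnc1, slow troponin C, had 449, 523 and 413. Their differences were within 2-fold in both PN14 libraries by FPKM.

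A ratio of paralogs within a library does not depend on the scaling between libraries. In 24 pairs of a perinatal or widely expressed gene and its adult or muscle-type partner, the partner's share relative to the first was higher in both PN14 libraries than at PN2 in 23, by at least 2-fold in 22 and by at least 16-fold in 8. The log2 FPKM ratio of Myh4 to Myh8 was -5.64 at PN2 and 9.77 and 7.77 at PN14. That of Myh1 to Myh3 was -3.75 and then 6.82 and 5.71. The ratio of Rpl3l to Rpl3, the muscle and the general form of a protein of the large ribosomal subunit, was -5.53 and then 1.78 and 1.08.

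Both members were held in 3 of the pairs (Myh1 with Myh3, Chrne with Chrng, and Rpl3l with Rpl3), only the adult member rose in 7, and only the perinatal member fell in 5. The adult member already had the higher FPKM at PN2 in 17 pairs and had it in both PN14 libraries in 23. Eef1a2, the muscle and neuron form of the elongation factor that brings aminoacyl-tRNA to the ribosome, was the exception, at 0.64 and -0.32 log2 units against Eef1a1 in PN14 replicates 1 and 2, up from -5.86. The shift was larger in replicate 1 in 22 pairs.

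**Figure D3:**
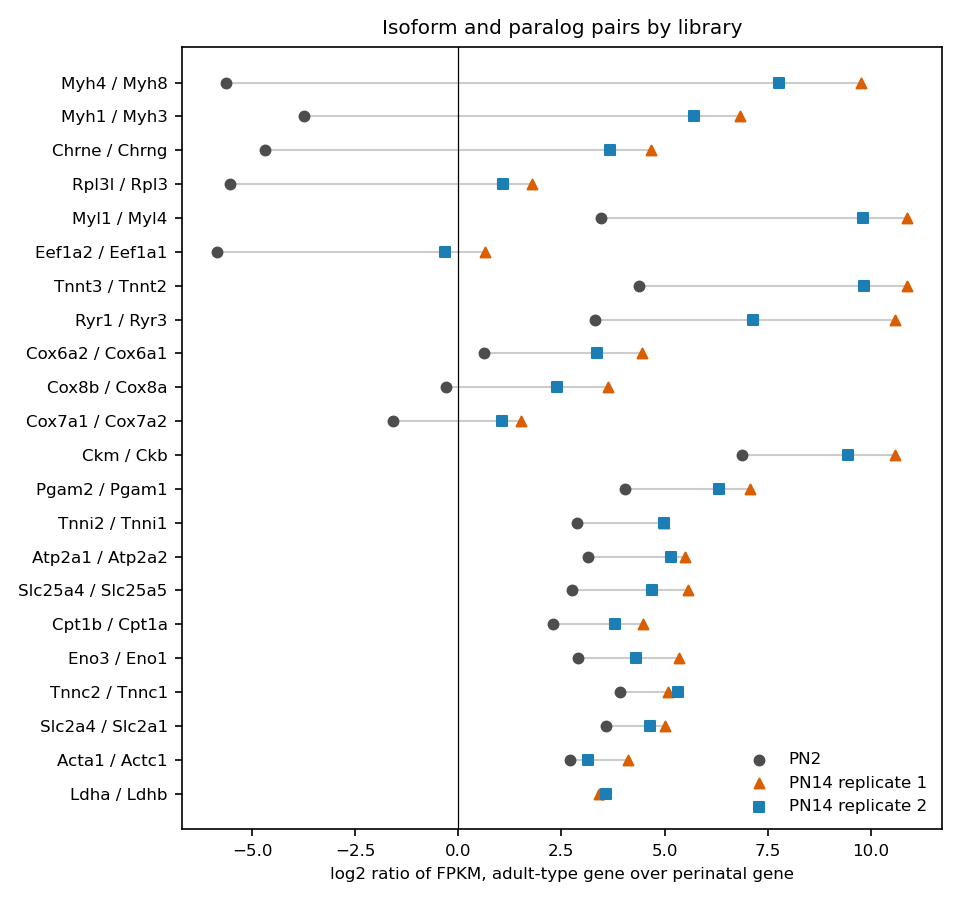
Log2 ratio of FPKM of the adult-type gene over the perinatal or general gene in each library, for 22 of the 24 pairs, ordered by the smaller of the 2 PN14 shifts. The PN14 points (triangles and squares) lie to the right of the PN2 point (circles) in 21 of the pairs drawn, and lactate dehydrogenase (Ldha over Ldhb) shows no such shift.

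The plot of ratios has lactate dehydrogenase at its lower end. The log2 FPKM ratio of Ldha to Ldhb was 3.48 at PN2 and 3.42 and 3.59 at PN14, since both genes had higher levels. Ldhb rose from 73.3 to 198 and 155 FPKM (log2 fold change 1.95, SE 0.347, adjusted p = 0.0131), and Ldha had 819, 2118 and 1862 FPKM (1.95, SE 0.659, adjusted p = 0.0692).

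At the neuromuscular junction, the genes of the fetal and the adult subunit of the acetylcholine receptor moved in opposite directions. Chrng encodes the gamma subunit of the fetal receptor and Chrne the epsilon subunit that takes its place. The 250 bases before their annotated starts are shown with 2 searched motifs in capitals on either strand, the ETS core CCGGAA and the E-box CAGCTG (RefSeq, GRCm38.p6: Chrng chr1:87205561-87205810, plus strand; Chrne chr11:70619195-70619444, minus strand, written 5′ to 3′ along the gene).
Chrng: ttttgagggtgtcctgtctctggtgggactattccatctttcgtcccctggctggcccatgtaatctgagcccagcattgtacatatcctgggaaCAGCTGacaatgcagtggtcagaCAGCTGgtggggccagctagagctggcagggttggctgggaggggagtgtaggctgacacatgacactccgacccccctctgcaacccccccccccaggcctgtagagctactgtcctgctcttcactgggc
Chrne: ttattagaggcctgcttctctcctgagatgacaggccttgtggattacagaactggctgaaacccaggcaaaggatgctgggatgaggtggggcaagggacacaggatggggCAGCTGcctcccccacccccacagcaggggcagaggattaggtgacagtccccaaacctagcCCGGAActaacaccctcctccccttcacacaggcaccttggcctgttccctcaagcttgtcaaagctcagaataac

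Chrne held CCGGAA 76 to 71 bases and CAGCTG 138 to 133 bases before its start. Chrng held CAGCTG 155 to 150 and 132 to 127 bases before its start, and CCGGAA was not among the letters of its window. Over all windows of the tested genes, 18.4% held CCGGAA and 13.1% held CAGCTG.

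Chrng (chr1:89102386-89108410 in mm9) had 56.1 FPKM at PN2 and 0.89 and 1.92 at PN14, and fell by 4.69 on the log2 scale (SE 0.335, edgeR adjusted p = 0.00301). Chrne (chr11:70428385-70432718) had 2.18 FPKM at PN2 and 22.7 and 24.5 at PN14, a log2 fold change of 4.10 (SE 0.218, adjusted p = 0.00228). As the definition of a held change requires, both PN14 libraries were below PN2 for Chrng and above it for Chrne. The log2 FPKM ratio of Chrne to Chrng was -7.33 at E18.5, -4.69 at PN2, 4.67 and 3.67 at PN14, 4.13 in the PN28 library and 6.89 in the adult library.

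Of the 16 junction genes, 1 rose (Chrne) and 4 fell, against 3.86% and 9.45% of all tested genes. The subunit genes Chrna1 (49.6 FPKM to 11 and 16.6) and Chrnd (31.0 to 2.54 and 4.47) fell, as did the adhesion molecule Ncam1 (31.5 to 5.11 and 6.01). Chrnb1, the beta subunit, had 56.0, 58.4 and 68.0 FPKM and was not called. The receptor's subunit genes thus differed in direction within the same libraries.

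Among 25 sarcolemmal channels and pumps, 7 rose and 5 fell, against 3.86% and 9.45% of all tested genes. Clcn1, the chloride channel that stabilises the resting fibre, rose from 8.13 to 43.2 and 32.2 FPKM (log2 fold change 2.90, SE 0.376, adjusted p = 0.00663). Kcna7, a voltage-gated potassium channel, rose from 5.45 to 53.5 and 39.8. The genes that fell included the T-type calcium channels Cacna1h (12.2 to 0.62 and 0.79) and Cacna1g (6.91 to 1.12 and 1.08).

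Atp1b1, a beta subunit of the sodium-potassium pump, rose from 20.6 to 82.3 and 79.8 FPKM. Atp1b4, a member of the beta subunit family, fell from 321 to 4.68 and 26.1 FPKM (log2 fold change -3.81, SE 0.793, adjusted p = 0.0194).

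Of 20 triad and calcium release genes, 6 rose and 1 fell, against 3.86% and 9.45% of all tested genes. The list's median was 1.27 under TMM and 0.60 under library size. Jsrp1, a junctional protein, rose from 111 to 310 and 300 FPKM (log2 fold change 2.13, SE 0.316, adjusted p = 0.00873), and Stac3, which is needed for coupling of excitation to contraction, from 67.5 to 179 and 149. Jph2, which ties the membranes of the junction together, rose from 69.5 to 217 and 165 FPKM, and Trdn (triadin) from 77.2 to 264 and 204. Ryr3, the release channel isoform of immature muscle, fell from 7.93 to 0.13 and 0.95 FPKM (-3.31, SE 0.855, adjusted p = 0.0341). Ryr1, the main release channel, had 79.4, 201 and 134 FPKM (1.77, SE 0.756, adjusted p = 0.123).

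The metabolic lists had mostly rising calls. Of 79 oxidative phosphorylation genes, 37 rose and 0 fell, against 3.86% of all tested genes that rose. Under TMM 73 were called rising and under library size 42, against 11.8% and 5.06% of all tested genes. Their median log2 fold change was 1.69 under TMM and 1.02 under library size, and their share of counts was 1.97% at PN2 and 3.65% and 3.97% at PN14. Of 17 TCA cycle genes, 7 rose and 0 fell, and of 30 fatty acid genes, 2 rose (Fabp3 and Eci1) and 0 fell.

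The muscle forms of cytochrome oxidase subunits had the larger differences. Cox7a1 rose from 89.0 to 987 and 965 FPKM (log2 fold change 4.12, SE 0.324, adjusted p = 0.00317). Cox6a2 rose from 357 to 1829 and 1555, and Cox8b from 267 to 1148 and 960. Of their general partners, Cox6a1 had 233 FPKM at PN2 and 83.8 and 152 at PN14, Cox8a had 328, 93.4 and 183, and neither was called under TMM. Cox7a2, the partner of Cox7a1, had 266, 348 and 466 FPKM and was called rising under TMM (1.26, SE 0.260, adjusted p = 0.0190) but not under library size. Of the windows of these 79 genes, 12.9% held the NRF-1 core GCATGCGC on either strand, against 3.65% of all windows.

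Glycolysis and glycogen genes had held members in both directions. Of 26 glycolysis genes, 6 rose and 1 fell, against 3.86% and 9.45% of all tested genes. Under library size 13 were called rising, against 5.06% of all tested genes. Pgk1 (phosphoglycerate kinase) rose from 312 to 1019 and 1060 FPKM, Gpd1 (cytosolic glycerol-3-phosphate dehydrogenase) from 71.5 to 349 and 331, and Slc2a4, the insulin-responsive glucose transporter, from 52.0 to 128 and 107. Slc2a3, another glucose transporter, fell from 1.57 to 0.30 and 0.38. Aldoa, aldolase A, had 1848 FPKM at PN2 and 8289 and 5730 at PN14, with an adjusted p of 0.141.

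Of 20 glycogen genes, 7 rose and 2 fell, against 3.86% and 9.45% of all tested genes. Phkg1 and Phka1, the muscle catalytic and regulatory subunits of phosphorylase kinase, rose from 20.7 to 168 and 131 FPKM and from 9.49 to 99.8 and 53.2. Phka2, the liver-type regulatory subunit, fell from 12.8 to 2.54 and 3.04 FPKM. Gys2, known as the liver glycogen synthase, rose from 0.01 to 5.91 and 3.69 FPKM (counts of 6, 1934 and 1450), a log2 fold change of 9.0 (SE 0.720, adjusted p = 0.00323). Its level was 2.80 FPKM at PN28 and 0.15 in the adult. Gys1, the muscle form, had 54.0 FPKM at PN2 and 111 and 102 at PN14, so its level stayed above that of Gys2 in each of these libraries.

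Of 16 creatine and adenylate genes, 2 rose and 1 fell, against 3.86% and 9.45% of all tested genes. The list's median was 0.62 under TMM and -0.06 under library size. Ckmt2, the mitochondrial creatine kinase of muscle, rose from 96.7 to 1178 and 874 FPKM (log2 fold change 4.09, SE 0.604, adjusted p = 0.00865). Gatm, which makes the creatine precursor, fell from 255 to 10.1 and 44.3 FPKM (-2.64, SE 0.661, adjusted p = 0.0314).

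**Figure D4:**
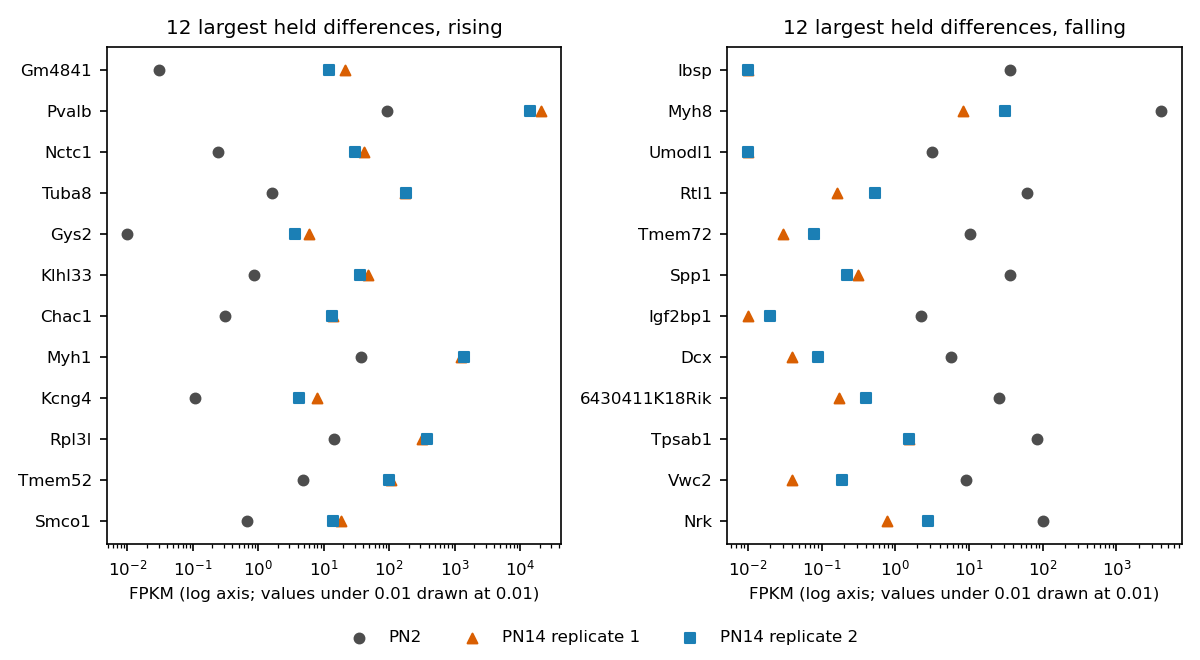
FPKM on a log axis in PN2 (circles) and PN14 replicates 1 and 2 (triangles and squares) for the 12 rising and 12 falling held genes with the largest differences, values under 0.01 being drawn at 0.01. By the choice of genes, PN2 lies apart from both PN14 libraries in every row. It is below them on the left (Pvalb, 93.7 against 20739 and 14167) and above them on the right (Myh8, 4065 against 8.25 and 31.1).

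The largest held differences, shown in the plot of levels of 12 rising and 12 falling genes, include genes outside these lists. Among the rising genes, Tuba8, an alpha-tubulin, had 1.62 FPKM at PN2 and 175 and 183 at PN14 (log2 fold change 7.45, SE 0.364, adjusted p = 0.00223). Nctc1, a non-coding RNA on chromosome 7 near H19 and Igf2 (chr7:149730514-149744501), had 0.24 FPKM at PN2 and 40.7 and 29.9 at PN14 (7.89, SE 0.482, adjusted p = 0.00279). Both genes were picked for large held differences, so both PN14 values lie above PN2 by that choice. Gm4841, Klhl33, Kcng4, Chac1, Tmem52 and Smco1 made up the rest of the 12, with Pvalb, Gys2, Myh1 and Rpl3l already given.

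Chac1, an enzyme that degrades glutathione, had 0.31 FPKM at PN2, 14.1 and 13.6 at PN14 and 50.9 in the adult. Rpl3l, described above as the partner of Rpl3, rose from 14.4 to 319 and 374 FPKM (log2 fold change 5.25, SE 0.375, adjusted p = 0.00301), while Rpl3 fell from 668 to 93.2 and 177 (-1.68, SE 0.347, adjusted p = 0.0190). Rpl3 was the only one of 75 tested ribosomal protein genes called under TMM. The list's median was -0.22 under TMM and -0.86 under library size. Under library size 19 of the 75 were called falling, against 29.4% of all tested genes.

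Among the falling genes, Rtl1, an imprinted gene derived from a retrotransposon (chr12:110827404-110838540), had 62.1 FPKM at PN2 and 0.16 and 0.53 at PN14 (log2 fold change -6.89, SE 0.565, adjusted p = 0.00333). Igf2bp1, an RNA-binding protein of fetal tissues, fell from 2.20 to 0.01 and 0.02 FPKM, and Dcx, the microtubule-binding doublecortin, from 5.73 to 0.04 and 0.09. Tpsab1, a tryptase of mast cells, fell from 82.6 to 1.55 and 1.54 FPKM. All 4 were lower still at PN28 (0.05, 0, 0.03 and 1.13 FPKM in that order).

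Of 23 imprinted growth genes, 11 fell and 0 rose, against 9.45% of all tested genes that fell. Dlk1, a membrane protein that restrains differentiation, fell from 615 to 8.70 and 30.0 FPKM (log2 fold change -4.40, SE 0.642, adjusted p = 0.00838). Magel2 fell from 10.2 to 0.09 and 0.27 FPKM and Peg3 from 164 to 9.24 and 17.6. Igf2, the fetal growth factor, had 2489 FPKM at PN2 and 115 and 497 at PN14 (-2.45, SE 0.817), with an adjusted p of 0.0668. H19, the non-coding RNA of the same locus, had 8279, 1981 and 2694 FPKM (-1.18, SE 0.813), with an adjusted p of 0.301. Neither was held, although both PN14 libraries lay below PN2.

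The oncofetal RNA-binding and HMGA genes held 4 falling members of 10, against 9.45% of all tested genes that fell. Besides Igf2bp1, these were Igf2bp2 (21.6 FPKM to 0.88 and 2.51), Igf2bp3 (11.7 to 0.36 and 0.68) and the chromatin protein Hmga2 (2.88 to 0.07 and 0.11).

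Genes of DNA replication and mitosis were lower at PN14. Of 48, 26 fell and 0 rose, against 9.45% and 3.86% of all tested genes. Under TMM 33 were called falling and under library size all 48, against 11.2% and 29.4% of all tested genes. The 48 genes had a median log2 fold change of -1.45 under TMM and -2.07 under library size. Their summed level was 694 FPKM at PN2 and 122 and 224 at PN14, and replicate 2 was the nearer to PN2 for 47 of the 48 genes under TMM. Many of their promoters hold the CCAAT box, a common element of cell cycle promoters, and the 250 bases before the start of 2 held members, Top2a and Cdk1, show it repeated. Capitals mark CCAAT on either strand (ATTGG on the strand shown) and TTTGAA, the cell cycle homology element, on either strand (RefSeq, GRCm38.p6, minus strand: Top2a chr11:99024190-99024439, Cdk1 chr10:69352913-69353162).
Top2a: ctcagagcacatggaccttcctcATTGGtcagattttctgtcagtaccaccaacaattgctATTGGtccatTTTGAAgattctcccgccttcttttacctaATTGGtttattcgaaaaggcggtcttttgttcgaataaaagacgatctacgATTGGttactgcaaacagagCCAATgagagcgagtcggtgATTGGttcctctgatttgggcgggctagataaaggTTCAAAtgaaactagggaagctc
Cdk1: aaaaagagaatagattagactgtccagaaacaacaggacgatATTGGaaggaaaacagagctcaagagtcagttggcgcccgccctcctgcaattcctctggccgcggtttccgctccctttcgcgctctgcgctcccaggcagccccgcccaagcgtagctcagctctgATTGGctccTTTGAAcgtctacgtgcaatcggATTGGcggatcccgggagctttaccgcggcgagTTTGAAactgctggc

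CCAAT was in 36 of 43 windows of these genes (83.7%; 38 of the 48 genes had a window), against 34.3% of the 15555 windows of all tested genes. This CCAAT share was the highest of the 31 lists. The next were 78.6% for antigen presentation and 65.0% for circadian clock genes, lists with 0 held falling members. TTTGAA was in 25.6% against 11.1%. The metabolic and fibre-type transcription factors also had 25.6%, the keratinocyte list 28.6% of 7 windows, and the other lists less. The windows of held falling genes as a whole held CCAAT in 34.9% and those of held rising genes in 36.9%. Top2a had 6 copies of CCAAT and Cdk1 had 3. These shares describe the letters present and do not show that a factor binds.

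Top2a, the topoisomerase that untangles replicated DNA (chr11:98854257-98885503 in mm9), had 24.5 FPKM at PN2 and 2.99 and 7.11 at PN14 (log2 fold change -1.67, SE 0.375, adjusted p = 0.0237). Cdk1, the kinase that drives entry into mitosis (chr10:68799383-68815686), fell from 17.7 to 2.27 and 5.51 FPKM (-1.57, SE 0.382, adjusted p = 0.0292). Ccne1, cyclin E1, fell from 20.1 to 1.17 and 2.13 FPKM (-2.98, SE 0.275, adjusted p = 0.00395). The replicative helicase genes Mcm2, Mcm3, Mcm4, Mcm5 and Mcm6 all fell, with log2 fold changes from -1.98 to -1.56.

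Of 20 myogenic progenitor and fusion genes, 5 fell and 0 rose, against 9.45% and 3.86% of all tested genes. Tmem8c (myomaker), which myoblasts need to fuse, fell from 104 to 7.10 and 16.4 FPKM (log2 fold change -2.53, SE 0.360, adjusted p = 0.00791), and Gm7325 (myomixer), its partner, from 30.4 to 1.99 and 7.33. Myf5, a factor of myoblasts, fell from 10.1 to 1.53 and 3.0 FPKM, and Cdh15, M-cadherin, from 38.4 to 8.58 and 12.6. Pax7, the satellite cell factor, had 4.53 FPKM at PN2 and 1.30 and 2.01 at PN14, with an adjusted p of 0.0508, and Myod1 had 42.2, 21.8 and 27.2 with an adjusted p of 0.570.

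Fibroblast matrix genes also had lower levels at PN14. Of 37, 15 fell and 0 rose, against 9.45% and 3.86% of all tested genes. The list's median was -1.0 under TMM and -1.64 under library size. Its share of counts was 4.33% at PN2 and 1.30% and 1.64% at PN14. Tnc, the tenascin of growing matrix, fell from 40.7 to 3.53 and 3.53 FPKM (log2 fold change -2.86, SE 0.199, adjusted p = 0.00301). Postn (periostin) fell from 815 to 45.8 and 94.4 FPKM, and Col12a1, a collagen on the surface of fibrils, from 53.0 to 4.55 and 6.09. The main fibrillar collagen gene Col1a1 had 1494, 541 and 563 FPKM and was not called under TMM (-0.77, SE 0.608, adjusted p = 0.361). Of 17 laminin and basement membrane genes, 2 rose (Col4a3 and Col4a4, both under 1 FPKM) and 0 fell. The shares over all tested genes were 3.86% rising and 9.45% falling.

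Markers of tissues next to the muscle were lower as well. Of 27 bone, cartilage and tendon genes, 19 fell and 1 rose (Chad, from 1.76 to 14.2 and 5.4 FPKM). Over all tested genes 9.45% fell and 3.86% rose. The list's summed level was 419 FPKM at PN2 and 109 and 101 at PN14. Ibsp, the bone sialoprotein, had counts of 10633 at PN2 and of 1 and 0 at PN14, at least 1643-fold lower under TMM with the PN14 level set at a floor of 3 counts per library. Spp1, osteopontin, fell from 35.7 to 0.31 and 0.22 FPKM (log2 fold change -6.42, SE 0.305, adjusted p = 0.00223), and the tendon protein Tnmd from 169 to 38.8 and 45.9. Mepe was at 0 counts in both PN14 libraries. The part of bone or tendon in the dissected PN2 tissue in these values, and in the matrix genes above, was not tested.

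The counts for other cell types are to be read against the 3.86% of all tested genes that rose and the 9.45% that fell. Of 18 macrophage genes 1 fell (Lyve1), and their summed level was 204 FPKM at PN2 and 95 and 129 at PN14. Of 20 endothelial genes 1 rose (Ushbp1), although 12 were called rising under TMM, against 11.8% of all tested genes. The list's summed levels were 442, 458 and 698 FPKM. Of 18 Schwann cell genes 2 fell, the growth factor receptors Ngfr (19.7 FPKM to 1.08 and 2.32) and Erbb3 (15.6 to 2.61 and 3.64).

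The Schwann cell list's summed level was 720 FPKM at PN2, 363 in PN14 replicate 1 and 1285 in replicate 2. The PN14 libraries lay on either side of PN2. Of 15 tested erythroid genes 1 rose, Tfrc, the transferrin receptor (34.3 FPKM to 113 and 171), with summed levels of 1601, 2324 and 1396, and Hbb-y was at 0 counts in both PN14 libraries. Of 16 adipocyte genes 3 rose and 2 fell, Adipoq (22.0 FPKM to 4.03 and 2.82) and Plin1 (9.17 to 1.34 and 0.94). The list's summed levels were 1571, 1964 and 1874 FPKM. Most of each sum was Car3 (994, 1303 and 1070) and Fabp4 (424, 479 and 625), neither of them held, so the sums do not follow the members that fell. Of 12 keratinocyte genes 2 fell (Krt1 and Krt14), with summed levels of 13.7, 7.66 and 11.2. Their part in other results was not tested.

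**Figure D5:**
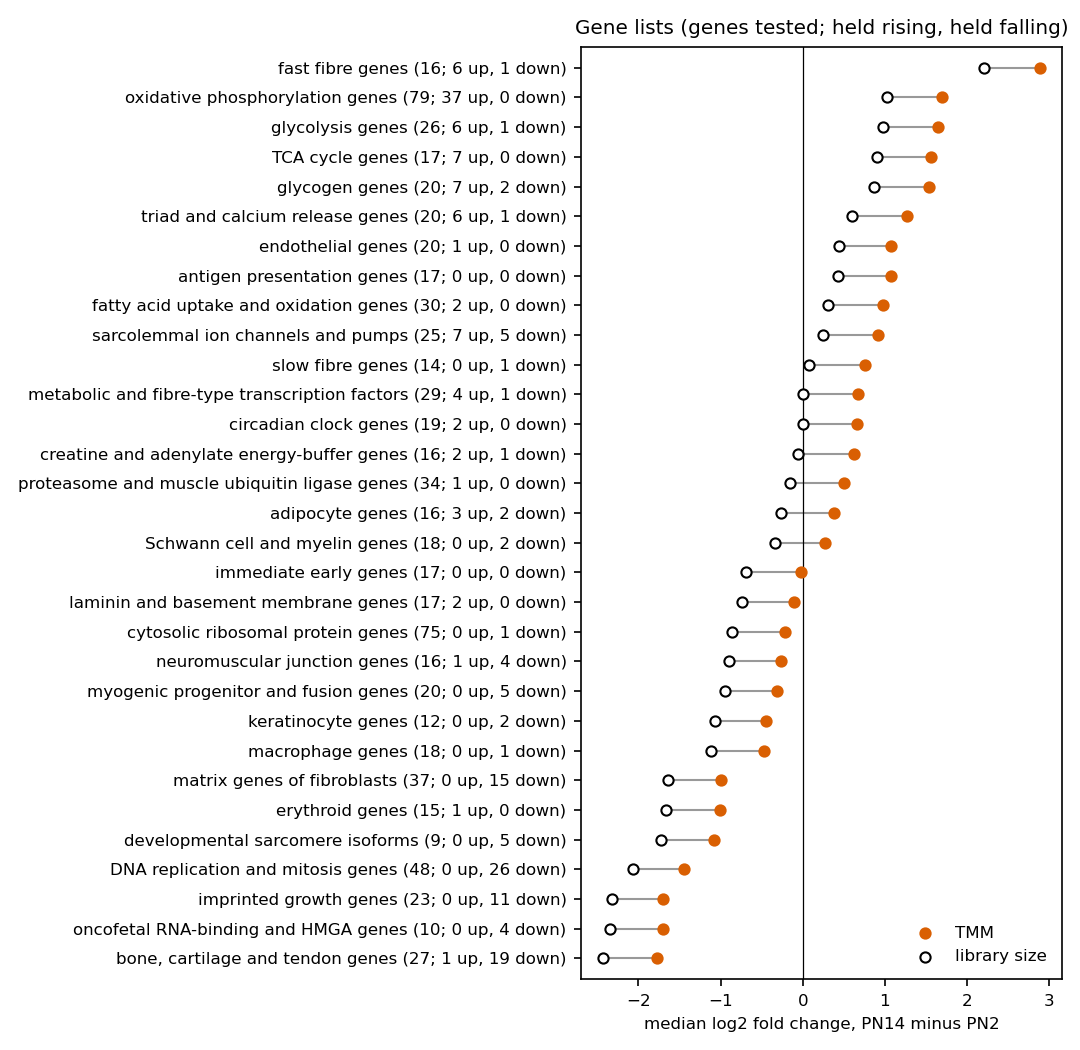
Median log2 fold change from PN2 to PN14 of each of 31 gene lists, under TMM (filled) and library size (open), with the number of genes tested and of held rising and falling members beside each name. The fast fibre list is at 2.89 and 2.21 and the bone, cartilage and tendon list at -1.77 and -2.43, and the 6 lists whose medians are above 0 under TMM but not above 0 under library size lie between.

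The remaining lists lie near the middle of the plot of list medians, and their counts stand against the same 3.86% rising and 9.45% falling. Of 29 metabolic and fibre-type transcription factors, 4 rose and 1 fell, including Thrb, the thyroid hormone receptor beta, from 0.16 to 1.57 and 0.70 FPKM (log2 fold change 3.53, SE 0.662, adjusted p = 0.0149), and Sox11, from 2.40 to 0.18 and 0.52. Of 34 proteasome and ubiquitin ligase genes, 1 rose, the muscle ligase component Fbxo40, from 2.91 to 42.5 and 25.9 FPKM (4.25, SE 0.503, adjusted p = 0.00577). Of 17 antigen presentation genes 0 were held. Rising calls numbered 9 under TMM and 1 under library size, against 11.8% and 5.06% of all tested genes.

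Of 19 circadian clock genes, 2 rose, Dbp (6.33 FPKM to 28.6 and 13.3) and Bhlhe41 (0.99 to 6.26 and 5.44). Per1, a light-responsive clock gene, had 8.97 FPKM at PN2 and 20.7 and 3.49 at PN14, on either side of PN2. The 17 immediate early genes had no held member, and a median of -0.02 under TMM and -0.69 under library size. Under library size 3 were called falling, against 29.4% of all tested genes.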

How the data were processed

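RNA of gastrocnemius muscle was measured in 6 libraries, of which the PN2 library and both PN14 libraries were compared here. The authors aligned paired-end reads to mm9 with TopHat2 2.0.5 and used RSEM to count fragments per RefSeq gene. The deposited expected counts were not normalized by the authors, and the deposited FPKM values were scaled by them to gene length and library total. Of 23367 gene entries, 27 carried symbols turned into dates and were kept as given.

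The expected counts were rounded to whole numbers. The analysis used edgeR 4.0.16 (R 4.3.3), with all 6 libraries and 5 stages in 1 fit, filterByExpr by stage, the quasi-likelihood test and Benjamini-Hochberg adjustment. Differences per library used log2(CPM + 0.1). The SE was the log2 fold change divided by the square root of F. The common biological coefficient of variation was 0.188 with TMM. The fit was tested on simulated counts with known fold changes. The simulation set no shift in composition between stages and a smaller spread than in these data. It therefore does not cover the difference between the scalings. Under library size the prior degrees of freedom were infinite, so its p-values were used for calls only. Total counts ranged from 125402932 to 157868359, and 3 counts per library was the floor for bounds, which cover counting error only.

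Genes were named by rule: the 12 largest rising and falling held differences among genes with at least 10 CPM, the members of 24 pairs, the most abundant and most changed held members of 31 lists, and the 10 largest shares per stage. Others were chosen after their values were seen. Members, lists and pairs were chosen with earlier results of these data known, so no list was tested. Gene coordinates are those of GENCODE M1 (mm9). Promoter windows are RefSeq sequences of another build, GRCm38.p6, matched by symbol for 12309 of 16882 genes, and motifs were searched in the 250 bases before the start. Alternatives were edgeR's exact test, DESeq2 1.42.0, other filters, scalings and pseudocounts, a fit of PN2 and PN14 alone, and each PN14 library left out. Some list members are not reported here by name.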

Additional observations from a re-analysis of the deposited data

How the results depend on the processing

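With a pseudocount of 1 CPM, 1398 changes remained held, 910 of them falling, and the genes at least 2-fold different in both PN14 libraries numbered 2212, 914 of them falling. Low genes lose size by construction there. Under library size, 697 genes were at least 2-fold higher and 3834 lower in both PN14 libraries, and 11 of the 31 list medians were above 0 against 17 under TMM. Leaving out each PN14 library gave 3701 to 5012 genes at least 2-fold different. Of these, 1919 to 2442 were higher and 1782 to 2570 lower, the last of these without replicate 2. Pairs with a higher ratio numbered 23 to 24. A condition on 1 PN14 library is looser than one on both, so these numbers could not lie below those with both. Of the 2246 held changes, 2246 stayed held with edgeR's exact test, 1731 with DESeq2's Wald test and 2225 in the fit of PN2 and PN14 alone. Rplp0, which was not called, turned from 0.01 to -0.01 without a filter, -0.03 with at least 1 CPM on average and -0.01 with DESeq2's size factors; the cause was not tested. Of the 92 named genes called under TMM, 0 reversed, and 3 lost the call with DESeq2, 3 (of 91 tested) with the 1 CPM filter and 1 in the fit of PN2 and PN14 alone. Without PN14 replicate 1, 25 of the 92 log2 differences lay more than the SD between the PN14 libraries from the fitted fold change. Without replicate 2, 12 did. Under library size these were 19 and 15 of 120. The fitted value comes from counts and the difference from CPM with a pseudocount, so these numbers do not measure dependence on a replicate. For Ibsp under TMM the fit gave -13.28, and the differences were -8.87 without replicate 1 and -8.74 without replicate 2. A test without a PN14 library has no residual degrees of freedom and was not run. No paired analysis was possible because PN2 has 1 library. With 1 PN2 library, its own spread is unknown.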
